A study of Homo sapiens with 8 samples.

Results

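The genes described here are 30 transcriptional targets of the tumour suppressor p53, taken by name from a list of well-known targets, with no measured value in the rule. They were read over genotype, treatment and time in 786-O, a kidney cancer line of the clear cell type whose VHL is not functional. The genes were chosen with earlier results of these data known. Of the 30 genes, 28 had a probe set assigned to that gene alone, and each of the 28 had exactly 1 such probe set, out of 18417 genes with a named probe set. BTG2 and FDXR were not analysed here. The tests took in the 11050 genes whose mean log2 intensity over the arrays reached the percentile 40 of all genes, which corresponds to an intensity of 118. Of the listed genes 26 reached it, while SESN1 and SPATA18 lay below it and are given by their intensities.

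p53 is a transcription factor that is held at a low level by the ubiquitin ligase MDM2 and accumulates when DNA is damaged, when ribosome assembly is disturbed or when growth signals are out of balance. Its targets halt the cell cycle, repair DNA, change metabolism or start apoptosis, and several of them feed back to lower p53. Some of these targets, GDF15, GADD45A and SESN2 among them, are also induced through the stress factor ATF4 without p53, so that their transcripts do not by themselves report p53 activity. p53 protein, its modification and its binding were not measured.

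Cells labelled parental and cells labelled HIF2a null, the latter made by CRISPR editing, were given DMSO or 2 uM PT2399 for 24 h or 48 h. PT2399 is a small-molecule HIF2a inhibitor that blocks its pairing with ARNT. Each combination was measured on 1 array, 8 in all, and the labels do not say whether the null cells are 1 clone. The growth text speaks of null cells for all samples, so genotype was read from the titles. Parental and null cells were handled in independent experiments, so for levels the effect of genotype cannot be told apart from that of the experiment. All groups share the VHL defect of the line and a medium with serum, and all received either DMSO or the drug.

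Transcripts of the known HIF2a target NDRG1 checked the treatment: its intensity was 3916 and 2553 in parental DMSO cells at 24 h and 48 h and 810.2 and 465 with PT2399, against 378 to 590.1 on the 4 null arrays. EPAS1, which encodes HIF2a, lay between 1010.1 and 1519 on the parental arrays and between 585 and 722 on the null arrays, and the position of its probes relative to the edit was not stated. All 8 measured renal epithelial and carcinoma markers were above the limit on expression, whereas the 4 endothelial and 3 fibroblast markers were below it, as were 3 of 4 leukocyte markers. The exception was CD68, a lysosomal protein that epithelial lines also make. The null 48 h PT2399 array stood apart, correlating with the other null arrays at 0.777 to 0.831 across genes, where those correlated among themselves at 0.940 to 0.983. Among the parental arrays, the one with PT2399 at 24 h had the highest median over its probe sets, 133.8 against 112 to 113 on the others.

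Errors below are standard errors (SE) from 1 limma model of log2 intensity over the 8 arrays, in which each genotype had its own level, time effect and drug effect, with 2 degrees of freedom left. A drug effect was thus repeated over the pair of arrays at 24 h and the pair at 48 h. A p-value measures the spread between such pairs, pooled over both genotypes and drawn by limma toward that of all genes. That spread may be technical. Parental errors thus also carry the spread of the null pairs, including that of the null 48 h PT2399 array. Benjamini-Hochberg adjustment was over all 11050 genes. All differences are on the log2 scale of intensity and all levels are linear intensities.

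The comparison of PT2399 with DMSO in parental cells asked how the p53 program stood when HIF2a was inhibited. GDF15 and TP53INP1 had the largest differences among the 26 genes, and CDKN1A, BBC3 and PHLDA3 followed, while the DNA repair genes POLH and DDB2 were lowest. Of the 26 genes, 13 were higher and 8 lower with PT2399 at both times, where 30.7% of all genes tested were higher and 27.1% lower at both times. The median difference was 0.06 against 0.02 over all genes, and it was -0.06 against -0.10 when each array was centred on the median of all its probe sets. By time it was 0.07 against 0.02 at 24 h and 0.09 against 0.00 at 48 h. By limma, 0 of the 26 genes passed at an adjusted p of 0.05, as did 0% of all genes. At an unadjusted p under 0.05 there were 2, GDF15 and TP53INP1, both higher, where 0.480% of all genes were higher and 0.697% lower by that count.

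GDF15 encodes a secreted stress cytokine of the TGF-beta superfamily that acts on appetite through a hindbrain receptor. Its intensity in parental cells was 213 with DMSO and 471 with PT2399 at 24 h, and 134.4 and 221 at 48 h. Both conditions were lower at 48 h than at 24 h. The difference was 0.93 (SE 0.25, 2 pairs, limma unadjusted p = 0.0101, adjusted p = 1.0), a 2.21-fold higher level at 24 h and a 1.64-fold higher level at 48 h.

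The promoter windows of these genes were searched for the p53 consensus, a pair of adjoining 10-base half-sites, and GDF15 and AEN were the 2 genes that held it. Their sites are shown because GDF15 had the largest parental difference. The windows ran from 250 bases before to 50 after the start of each gene in RefSeq (GRCh38.p14), and 25 of the 30 genes had a window. A match needed the 4 core letters of each half-site (C, A or T, A or T, G) exactly and allowed up to 3 mismatches over the 20 bases. Since the consensus reads the same on either strand, a single scan covered both. The matches, 5′ to 3′ on the plus strand and with the core letters in capitals, were:
GDF15: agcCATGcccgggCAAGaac
AEN: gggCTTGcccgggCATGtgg
The GDF15 match lay at chr19:18386186-18386205, positions 29 to 48 counted from the start and thus downstream of it, with 3 mismatches. The AEN match lay at chr15:88621306-88621325, positions -34 to -15, upstream of the start, with 2 mismatches. Matches were found in 8.0% of the 25 windows and in 0.418% of 27305 promoter windows of the table, or 0.326% of the 8888 windows of tested genes. Many p53 targets carry their response element farther upstream or in an intron, outside these windows, and a match is a description of letters and not of binding. A hypoxia response core, ACGTG or GCGTG on either strand, was in 14 of the 25 windows (56.0%) in 48.4% of all windows and in 63.9% of those of tested genes, and GDF15 had none.

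TP53INP1, a nuclear protein that promotes autophagy and p53-dependent death, stood at 183 with DMSO and 346 with PT2399 at 24 h in parental cells, and at 124 and 211 at 48 h. The difference was 0.85 (SE 0.27, limma unadjusted p = 0.0206, adjusted p = 1.0), 0.92 at 24 h and 0.77 at 48 h. Of the measured genes, TP53INP1 and GDF15 were the 2 whose differences exceeded 0.7 at both times.

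**Figure D1:**
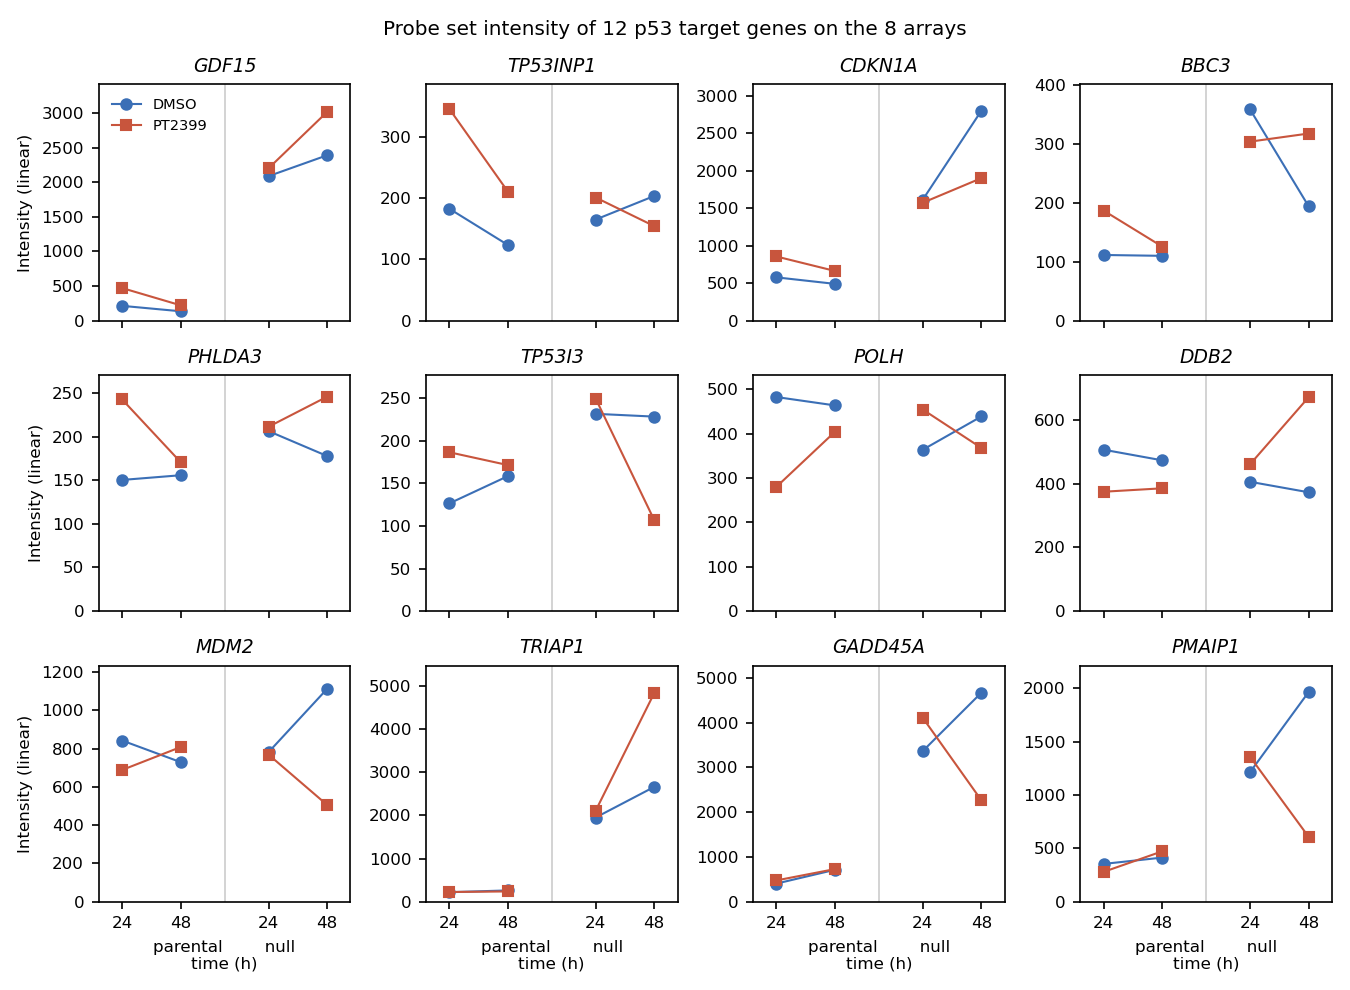
Linear probe set intensity (y axis, from 0, a scale of its own for each gene) of 12 p53 target genes on the 8 arrays. Points are single arrays at 24 h and 48 h (x axis), parental on the left and null on the right of each panel, with DMSO in blue circles and PT2399 in red squares. GDF15 lies at 134.4 to 471 on the parental arrays and at 2091 to 3021 on the null arrays.

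Among genes that halt the cell cycle, CDKN1A, the cyclin-dependent kinase inhibitor p21 and the best known p53 target, had intensities of 577 and 489.9 with DMSO and 855 and 662 with PT2399 in parental cells at 24 h and 48 h. The difference was 0.50 (SE 0.25, limma unadjusted p = 0.0947). GADD45A, a stress protein that binds PCNA and p21, was at 404 and 712 with DMSO and at 475 and 728 with PT2399. Its levels differed more between times than between treatments, and the PT2399 difference was 0.13 (SE 0.36). PLK2, a polo-like kinase of centriole duplication, behaved alike with 1170.5 and 1940.0 in DMSO and 1459 and 2079 in PT2399, a difference of 0.21 (SE 0.31). PLK3, a related stress kinase, was near the limit on expression, at 92.9 and 91.6 with DMSO and 113 and 96.7 with PT2399 (0.18, SE 0.26).

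Genes that promote apoptosis divided in direction. BBC3, the BH3-only protein PUMA, was at 111 and 109.9 with DMSO and at 187 and 126 with PT2399, a difference of 0.75 at 24 h and 0.19 at 48 h (0.47, SE 0.32). Its DMSO levels were below the limit of 118 set on the mean. BAX, the pore-forming effector that BH3-only proteins release, was at 589 and 605 with DMSO and at 747 and 642 with PT2399 (0.21, SE 0.32). PMAIP1, the BH3-only protein NOXA, was lower at 24 h (354 to 279.6) and higher at 48 h (413 to 472), which gave -0.07 (SE 0.46). The death receptors did not share the direction of BBC3: FAS was at 504 and 492 with DMSO and 362 and 474 with PT2399 (-0.27, SE 0.32), and TNFRSF10B, the TRAIL receptor DR5, differed by -0.08 (SE 0.23). EDA2R, a receptor of the same superfamily that binds ectodysplasin A2, stood at 0.12 (SE 0.51).

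Other genes linked to death or survival signalling were PHLDA3, which competes with AKT for membrane lipids, at 150.3 and 156 with DMSO and at 243 and 171 with PT2399 (0.41, SE 0.27). ZMAT3, a zinc finger RNA-binding protein that controls splicing, was at 353 and 266 with DMSO and 448 and 326 with PT2399, with like differences of 0.34 and 0.29 (0.32, SE 0.23). PERP, a desmosomal membrane protein, was lower at both times (-0.25, SE 0.29). AEN, an apoptosis-enhancing nuclease, stood at -0.10 (SE 0.23), TRIAP1, a small mitochondrial survival protein, at -0.05 (SE 0.28), and CYFIP2, a subunit of the WAVE actin complex, at -0.01 (SE 0.24). AEN and GDF15, which each held a promoter match of its own, had differences of -0.10 and 0.93, that of AEN within its SE of 0. Whether the matches had a part in these values was not tested.

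All 4 DNA repair and nucleotide genes had small or negative differences. POLH, the polymerase that bypasses ultraviolet lesions, was at 483 and 464 with DMSO and at 280.2 and 404 with PT2399, so that its value of -0.49 (SE 0.28) came mostly from 24 h, at -0.78, with -0.20 at 48 h. DDB2, the damage sensor of nucleotide excision repair, was at 507 and 473 with DMSO and at 375 and 385 with PT2399, a difference of -0.37 (SE 0.27). XPC, the other sensor of that pathway, stood at -0.07 (SE 0.23), and RRM2B, a p53-induced subunit of ribonucleotide reductase, at 0.06 (SE 0.42).

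The genes that feed back on p53 had differences near 0. MDM2 was at 842 and 729 with DMSO and at 688 and 808 with PT2399, which is lower at 24 h and higher at 48 h (-0.07, SE 0.34). PPM1D, the phosphatase WIP1 that reverses damage signalling, stood at -0.13 (SE 0.33). CCNG1, cyclin G1, which recruits a phosphatase to MDM2, stood at 0.05 (SE 0.42). Of the redox and mitochondrial genes, TP53I3, a quinone oxidoreductase, was at 126 and 159 with DMSO and 187 and 172 with PT2399 (0.34, SE 0.35). SESN1, a sestrin that restrains mTORC1, was at 116 and 87.0 with DMSO and 123 and 101 with PT2399. SPATA18, a protein of mitochondrial quality control, was at 93.5 and 89.0 with DMSO and 143 and 94.9 with PT2399.

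Parental differences were wider at 24 h, the pair with the array of highest median, than at 48 h, and the part of that array was not tested. The SD of the parental differences over the 26 genes was 0.46 at 24 h and 0.26 at 48 h, and over all genes 0.39 and 0.20. When the spread was taken from the 4 parental arrays alone, 6 of the 26 genes had an unadjusted p under 0.05 by limma. That fit left fewer degrees of freedom than the fit on 8 arrays, so its errors rest more on the spread of all genes. GDF15, TP53INP1, CDKN1A and BBC3 were higher, where 4.18% of all genes were, and POLH and DDB2 lower, where 3.65% were. In that fit the adjusted p was 0.181 for TP53INP1 (SE 0.14) and 0.219 for GDF15 (SE 0.16), and 0 of the 26 passed. Leaving out 1 null pair of arrays gave this same parental fit again, since the spread then came from the parental arrays alone. With 1 parental pair left out, the remaining pair had no repeat and the spread came from the null arrays.

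**Figure D2:**
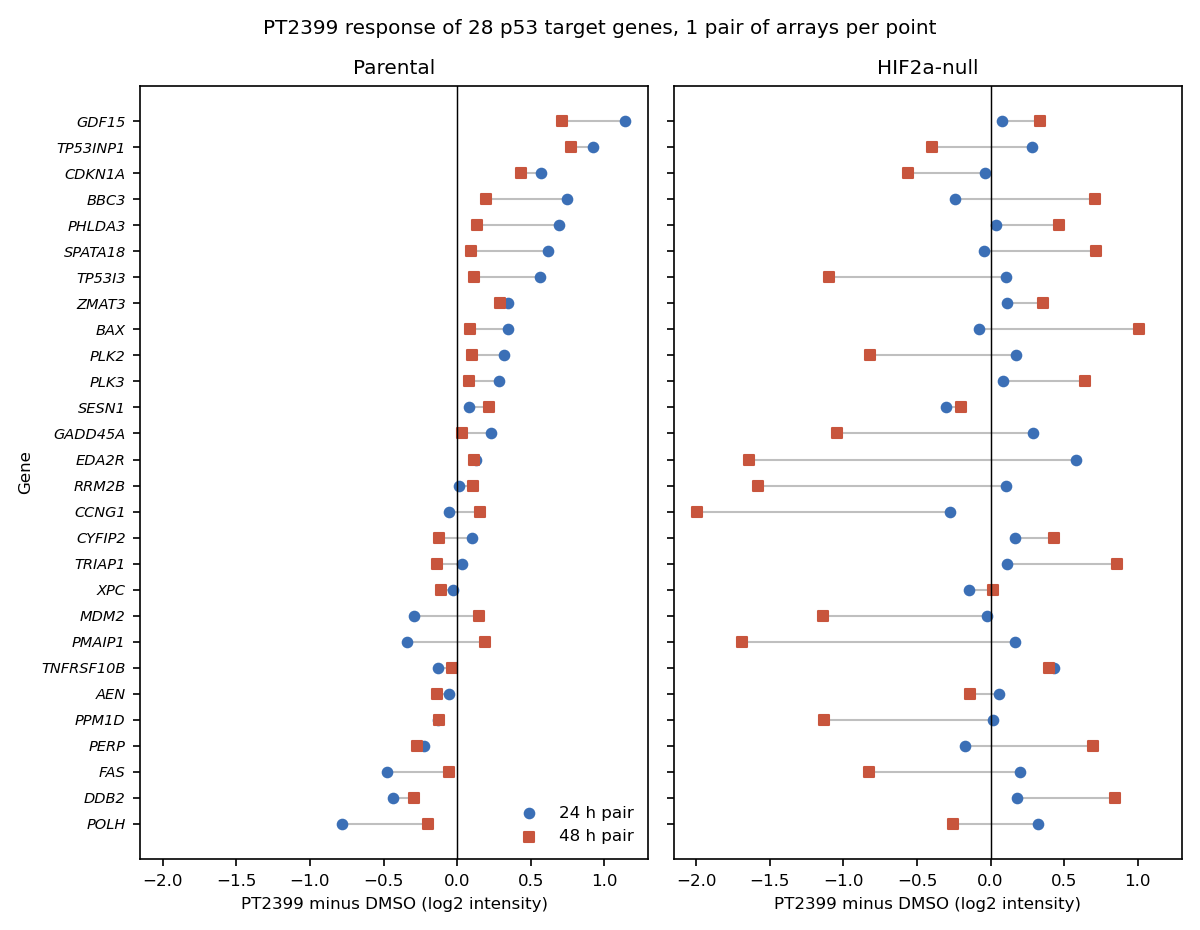
Log2 difference of PT2399 minus DMSO (x axis) for each of 28 p53 target genes (y axis, ordered by the parental mean), with the 24 h pair of arrays as blue circles and the 48 h pair as red squares. Parental differences run from -0.78 for POLH to 1.14 for GDF15, and the widest null values, down to -2.0 for CCNG1, come from the 48 h pair.

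**Figure D3:**
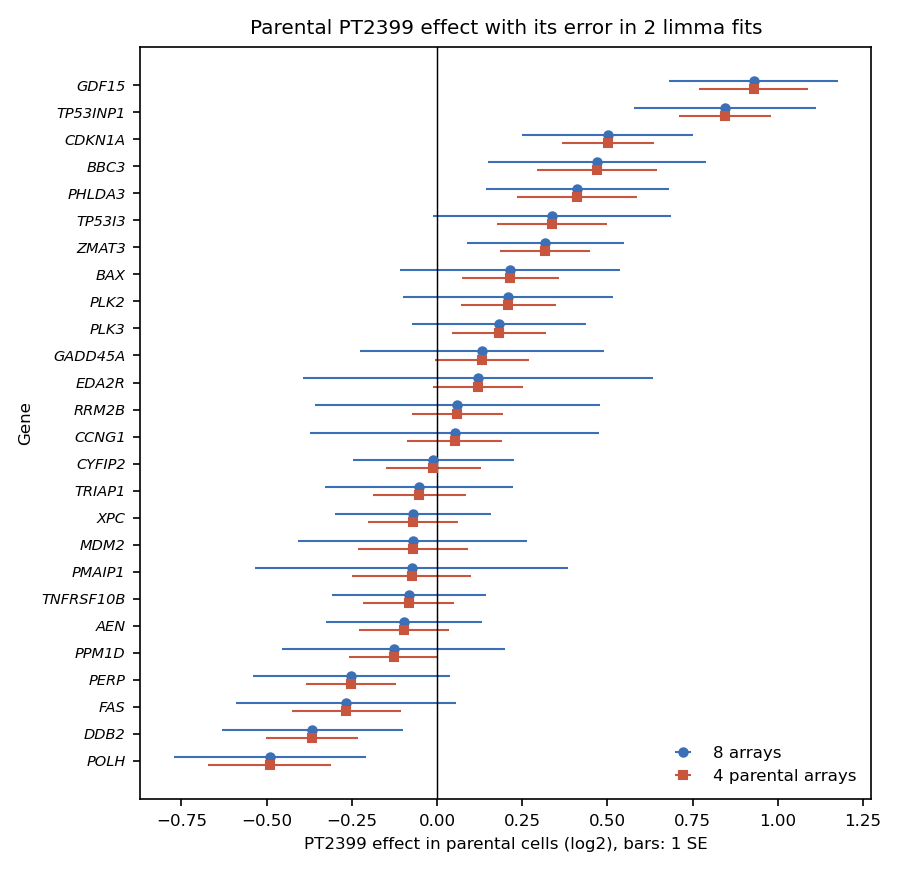
PT2399 effect in parental cells (x axis, log2) for the 26 p53 target genes tested (y axis), with 1 SE as bars, from the limma fit on 8 arrays (blue circles) and on the 4 parental arrays (red squares). The values are the same in both fits and the bars are shorter in the second, as for GDF15 at 0.93 with SE 0.25 and 0.16.

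The comparison in null cells asked what PT2399 did in cells labelled as lacking its target. At 24 h the p53 targets lay close to 0: their differences ran from -0.28 for CCNG1 to 0.58 for EDA2R, with a median of 0.11 against 0.03 over all genes. At 48 h, where the PT2399 array stood apart from the rest, they ran from -2.0 for CCNG1 to 1.01 for BAX. Their median there was -0.20 against 0.01 over all genes. The SD over the 26 genes was 0.20 at 24 h and 0.92 at 48 h, close to the 0.24 and 0.93 over all genes. At both times 8 of the 26 were higher, where 27.0% of all genes were, and 3 were lower, where 19.5% were. By limma 0 of the 26 passed at an adjusted p of 0.05, as did 0% of all genes. CCNG1 alone had an unadjusted p under 0.05, as a lower gene (-1.14, SE 0.42, limma unadjusted p = 0.0379, adjusted p = 0.61), where 3.07% of all genes were lower and 1.29% higher by that count.

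CCNG1 was at 1243 with DMSO and 1026 with PT2399 at 24 h in null cells, and at 1467 and 368 at 48 h. Its low value was thus that of the 48 h PT2399 array, and the 7 other arrays of the series lay between 1026 and 1495. The same array held the lowest null value of several further genes. PMAIP1 was at 1214, 1966 and 1359.5 on the other null arrays and at 609 there, RRM2B at 507 to 814 against 272, EDA2R at 530.3 to 791 against 224, and PPM1D at 316 to 399.9 against 183. MDM2 was at 769 to 1111 against 506, and TP53I3 at 228 to 249.6 against 107. It also held the highest null value of BAX, at 1125 against 559 to 761, of TRIAP1, at 4833 against 1950 to 2659, of DDB2, at 671 against 373 to 461, and of TNFRSF10B, at 922 against 509 to 699. On that array BAX was high and PMAIP1 low among apoptosis genes, DDB2 was high and RRM2B low among repair genes, and the feedback genes MDM2, PPM1D and CCNG1 were all low. The 48 h null differences of all genes spread as widely, with an SD of 0.93 against 0.92 over the 26 genes. Whether the state of that library shaped these values was not tested.

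GDF15, whose parental difference was the highest, was at 2091 with DMSO and 2204 with PT2399 at 24 h in null cells and at 2393 and 3021 at 48 h, a difference of 0.21 (SE 0.25). TP53INP1 was at 165 and 201 at 24 h and at 204 and 154 at 48 h (-0.06, SE 0.27). CDKN1A was at 1616 and 1574 at 24 h and at 2803 and 1902 at 48 h (-0.30, SE 0.25). BBC3 was at 359 and 304 at 24 h and at 194 and 318 at 48 h (0.24, SE 0.32). For these 4 genes the signs at 24 h and 48 h agreed only for GDF15 and CDKN1A.

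The difference between the genotypes in their PT2399 response was taken as a contrast in the same model. The median over the 26 genes was 0.20 against 0.04 over all genes, and 16 of the 26 were above 0, where 5856 of all 11050 genes were. By time it was -0.05 at 24 h and 0.22 at 48 h, and with the null 48 h pair left out it was also -0.05. At both times 6 of the 26 were higher in the parental response, where 18.4% of all genes were, and 5 were lower, where 19.8% were. The 6 were CDKN1A, GDF15, TP53INP1, TP53I3, PLK2 and CCNG1, and the 5 were DDB2, TNFRSF10B, TRIAP1, PERP and CYFIP2. By limma 0 of the 26 passed at an adjusted p of 0.05, as did 0% of all genes, and 0 had an unadjusted p under 0.05, where 0.896% of all genes were higher and 0.842% lower by that count. The values nearest to it were TP53INP1 at 0.90 (SE 0.38, unadjusted p = 0.0559), DDB2 at -0.88 (SE 0.38, unadjusted p = 0.0590) and CDKN1A at 0.80 (SE 0.36, unadjusted p = 0.0669). GDF15 stood at 0.72 (SE 0.35). Responses in parental cells and in null cells are therefore not shown to differ for any of these genes. Over the 26 genes the SE of this contrast ran from 0.32 to 0.73.

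DMSO cells of the 2 genotypes were set side by side with no test, for the reason given above. Of the 26 genes, 5 were at least 2-fold higher in null than in parental DMSO cells at both times, where 3.11% of all genes were, and 0 were at least 2-fold lower, where 4.68% were. The median difference was 0.10 at 24 h and 0.52 at 48 h, against -0.20 and -0.13 over all genes. GDF15 was 9.81-fold higher in null cells at 24 h (2091 against 213) and 17.8-fold higher at 48 h (2393 against 134.4). TRIAP1 was 8.89-fold and 10.2-fold higher (1950 against 219, and 2659 against 261). GADD45A was 8.33-fold and 6.55-fold higher (3365 against 404, and 4668 against 712). PMAIP1 was 3.43-fold and 4.75-fold higher (1214 against 354, and 1966 against 413), and CDKN1A 2.80-fold and 5.72-fold higher (1616 against 577, and 2803 against 489.9).

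In 8 of the 26 genes all 4 null arrays lay above all 4 parental arrays, where 8.83% of all genes did, and in 1 of the 26 they lay below, where 22.0% did. The 8 were those 5 genes with BBC3, PLK3 (172 to 267 against 91.6 to 113) and TNFRSF10B (509 to 922 against 379.9 to 416), and the 1 below was PERP. PLK3 lay below the limit of 118 on all 4 parental arrays and entered the tested genes only through its null values, so its place in this count is no support. The 5 genes cover arrest, survival, apoptosis and secretion, and other genes of those roles did not reach 2-fold at both times. BBC3 did so at 24 h only, at 359 and 194 in null against 111 and 109.9 in parental cells, as did PLK2, at 2610.4 and 3372 against 1170.5 and 1940.0. MDM2 was at 781 and 1111 in null DMSO cells against 842 and 729 in parental ones, BAX at 761 and 559 against 589 and 605, and FAS at 386 and 559 against 504 and 492. The repair genes XPC, DDB2 and POLH lay within 0.41 of 0 at both times, while RRM2B stood at -0.30 at 24 h and 0.66 at 48 h. ZMAT3 was lowest at 24 h (168 against 353) and PERP at 48 h, the latter at 619 and 491 in null against 1158 and 1108 in parental cells.

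**Figure D4:**
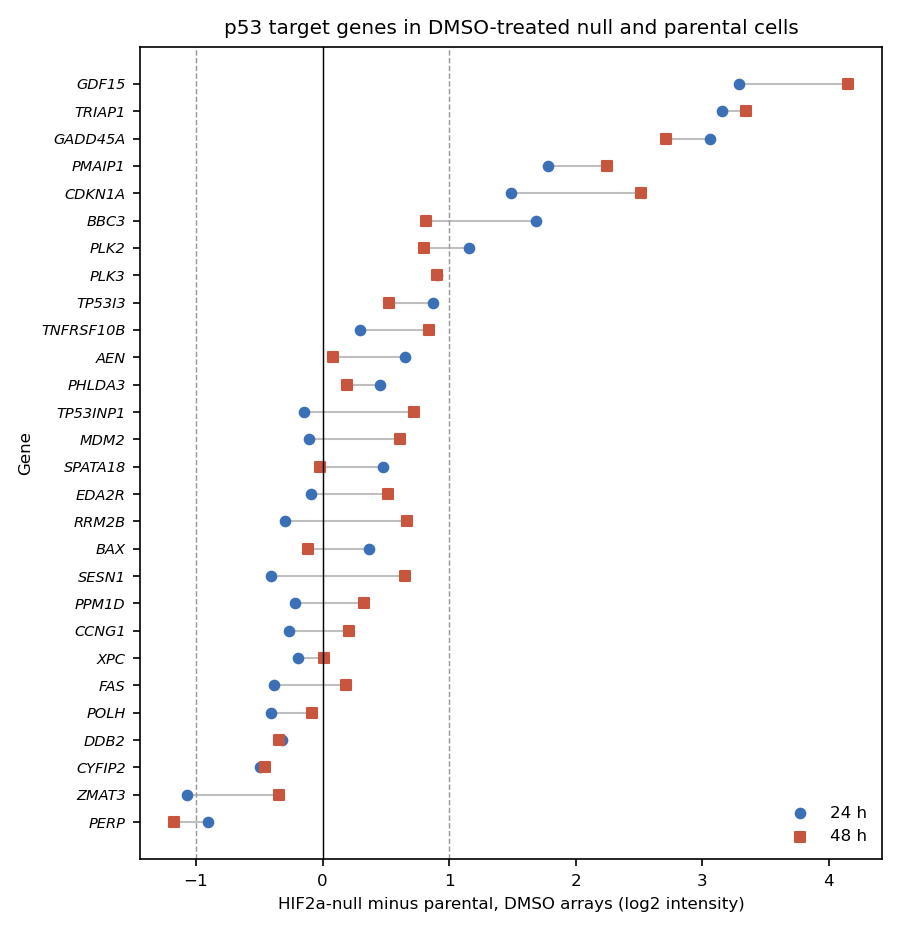
Log2 difference of null minus parental cells in DMSO (x axis) for 28 p53 target genes (y axis, ordered by the mean), at 24 h (blue circles) and 48 h (red squares), 1 array per genotype and time. Dashed lines mark a 2-fold difference, and GDF15, TRIAP1, GADD45A, PMAIP1 and CDKN1A lie above it at both times.

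Time in culture was compared within each genotype in the same model, with the DMSO and PT2399 arrays as its repeats. In parental cells 9 of the 26 genes were higher and 17 lower at 48 h than at 24 h, where 46.5% of all genes were higher, with a median of -0.09 against -0.02 over all genes, whereas with arrays centred on all probe sets 14 were higher, with a median of 0.03 against 0.10. GDF15 was lower at 48 h with either treatment, at -0.67 in DMSO and -1.09 in PT2399 (-0.88, SE 0.25, limma unadjusted p = 0.0129, adjusted p = 1.0). It was the only one of the 26 with an unadjusted p under 0.05, where 0.507% of all genes were lower by that count and 0% passed the adjusted one. TP53INP1 (-0.64, SE 0.27) and ZMAT3 (-0.43, SE 0.23) were also lower in both conditions, while GADD45A (0.72, SE 0.36) and PLK2 (0.62, SE 0.31) were higher in both. In null cells TRIAP1 alone had an unadjusted p under 0.05, as a higher gene at 48 h (0.82, SE 0.28, limma unadjusted p = 0.0257, adjusted p = 0.60), where 2.43% of all genes were higher and 0% passed the adjusted count. Its difference was 0.45 between the DMSO arrays and 1.20 between the PT2399 arrays, the latter resting on the array that stood apart.

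Further genes of the pathway came from 4 lists, also chosen with earlier results of these data known. Their shares are therefore descriptions and not tests. Of 28 p53 regulators 25 were tested, and their median parental PT2399 difference was -0.01, with 5 of the 25 higher and 10 lower at both times, where 30.7% of all genes were higher and 27.1% lower, and 0 with an unadjusted p under 0.05. MDM4, the MDM2 partner that masks the activation domain of p53, was at 327 and 316 with DMSO and 241 and 361 with PT2399 in parental cells (-0.12, SE 0.45). The lowest were the checkpoint kinases CHEK1 at -0.44 (SE 0.33) and CHEK2 at -0.23 (SE 0.31), and the highest RCHY1, a ubiquitin ligase, at 0.14 (SE 0.31) and PPP1R13B, the p53 cofactor ASPP1, at 0.13 (SE 0.24). TP73, a p53 relative, stood at 0.13 (SE 0.32), and CDKN2A, which encodes the MDM2 inhibitor ARF, lay below the limit on expression at 52.6 to 102 on all arrays. In DMSO, SIRT1, a deacetylase that acts on p53, was 7.25-fold and 6.65-fold higher in null than in parental cells, and DAXX, a histone chaperone that binds MDM2, 2.60-fold and 2.48-fold lower. These were the regulators past 2-fold at both times, named for that count after their values were seen, and 1 of 25 in each direction is near the 3.11% and 4.68% of all genes.

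Of 45 further p53 targets 35 were tested, with a median parental PT2399 difference of 0.10, 16 higher (45.7%, against 30.7% of all genes) and 11 lower (31.4%, against 27.1%) at both times. By limma 2 had an unadjusted p under 0.05, both lower, where 0.697% of all genes were lower: TGFA, which encodes an EGF receptor ligand, stood at -1.53 (SE 0.36), and LIF, a cytokine that maintains stem cells, had -0.85 (SE 0.31), each with an adjusted p of 1.0. TGFA is also a known HIF2a target. The highest were TRIM22, an interferon-inducible protein, at 0.41 (SE 0.26) and SESN2, a sestrin, at 0.39 (SE 0.24). In DMSO 2 of the 35 (5.71%) were at least 2-fold higher in null than in parental cells at both times, against 3.11% of all genes: KLF4, a zinc finger factor, 4.31-fold and 6.79-fold, and SESN2, 2.91-fold and 3.30-fold. KLF4 lay at 74.5 to 93.5 on the parental arrays, below the limit on expression, and at 321 to 512 on the null arrays. It was thus tested only through its null values, and its place in this count is no support.

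Cell cycle genes that p53 lowers through p21 and the DREAM complex had a common direction in parental cells. Of 24 tested, 23 were lower at both times, where 27.1% of all genes were, and 0 had an unadjusted p under 0.05. The median was -0.29 against 0.02 over all genes. By time it was -0.42 against 0.02 at 24 h, the pair with the array of highest median, and -0.18 against 0.00 at 48 h. The part of that array was not tested. On the parental arrays alone 9 of the 24 (37.5%) were lower at an unadjusted p under 0.05 by limma, where 3.65% of all genes were. That fit left fewer degrees of freedom than the fit on all arrays. MCM5, a replicative helicase subunit, was lowest at -0.60 (SE 0.26), followed by CDC25A, a phosphatase of G1/S entry, at -0.53 (SE 0.24), and the least low were AURKB, a mitotic kinase, at -0.15 (SE 0.24) and CDC20, an activator of mitotic exit, at -0.16 (SE 0.23). In null cells 7 of the 24 (29.2%) were lower and 3 (12.5%) higher at both times, where 19.5% of all genes were lower and 27.0% higher. These genes track the number of dividing cells with or without p53, and in bulk RNA fewer cycling cells and less transcript per cell cannot be told apart.

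The list of amino acid stress genes driven by ATF4 was read because it shares inputs with GDF15, GADD45A and SESN2. Of 14 tested, 5 were higher and 5 lower (35.7% each) with PT2399 at both times in parental cells, near the 30.7% and 27.1% of all genes, with a median of 0.05. TRIB3, a pseudokinase, stood at -0.95 (SE 0.33, limma unadjusted p = 0.0288) and DDIT4, an inhibitor of mTORC1 that HIF also induces, at -1.22 (SE 0.28, unadjusted p = 0.0049). CEBPB, a leucine zipper factor, stood at 0.49 (SE 0.26) and NUPR1, a stress-induced chromatin protein, at 0.42 (SE 0.23). In DMSO the picture differed, with 6 of the 14 at least 2-fold higher in null than in parental cells at both times and 0 lower, beside the shares of 3.11% and 4.68% given above. Over the 14 the median DMSO difference was 0.72 at 24 h and 1.46 at 48 h. The 6, named for that count after their values were seen, were CHAC1, a glutathione-degrading enzyme, 6.36-fold and 7.59-fold higher, DDIT3, the factor CHOP, 4.55-fold and 4.54-fold higher, and NUPR1, ATF3, SESN2 and CEBPB at 2.36-fold to 5.49-fold. ATF3 lay at 83.7 to 116.6 on the parental arrays, below the limit on expression, and at 198 to 512 on the null arrays. It was thus tested only through its null values. The part of ATF4 activity in the null levels of GDF15 and GADD45A was not tested.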

How the data were processed

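Transcript levels were measured on 8 Affymetrix whole-transcript arrays. Trizol was used to extract the RNA, per the labels' protocols. The authors deposited 1 linear intensity per probe set and array. How they corrected background, summarised probes and scaled arrays is not stated in the sources used. Probe sets were named from the platform annotation and updated by Entrez identifier to RefSeq (GRCh38.p14): 19460 of 33252 carried 1 gene, of which 19429 matched. The probe set with the highest mean log2 intensity stood for a gene, and genes under the percentile 40 of that mean were left out, leaving 11050. Fits used limma 3.58.1 (lmFit, eBayes) in R 4.3.3 on log2 intensity, with Benjamini-Hochberg adjustment over all genes tested. The procedure was tested on simulated data. Alternatives were other scalings, filters, a probe set mean, a pseudocount of 32, each genotype alone and each pair of arrays left out. Named were all listed genes and, in each companion list, those with an unadjusted p under 0.05, the 2 largest effects in each direction and a few fixed genes. The genes and lists were chosen with earlier results of these data known. Labels do not say whether arrays came from separate cultures. The number of arrays limits the precision.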

Additional observations from a re-analysis of the deposited data

Results flagged for a closer look

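In 4 of the 28 measured genes the 2 parental pairs moved one way with PT2399 and the 2 null pairs the other way. The share of all genes with such signs was not counted, so the 4 are not shown to exceed it. CDKN1A differed between the genotypes by 0.80 on the log2 scale (limma unadjusted p = 0.0669), with 0.57 and 0.43 in parental and -0.04 and -0.56 in null cells at 24 h and 48 h. DDB2 differed by -0.88 (unadjusted p = 0.0590), with -0.44 and -0.30 against 0.18 and 0.85. TNFRSF10B differed by -0.50 (unadjusted p = 0.172), with -0.13 and -0.04 against 0.43 and 0.40. SESN1 differed by 0.40, with 0.08 and 0.21 against -0.30 and -0.20. It lay below the limit on expression, so that its difference was not tested.
For CDKN1A, DDB2 and TNFRSF10B the adjusted p of the difference by limma was 0.945 each, over all genes tested.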

How the results depend on the processing

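Centring on the median of tested genes, quantile normalization and the pseudocount kept the direction of every listed gene that was tested. The other filters, the probe set mean and the fits on 1 genotype could not change a direction. They leave the value of each listed gene as it was, since each gene had 1 probe set and each genotype its own terms. Centring each array on the median of all its probe sets, added after seeing the data, moved the median of all genes from 0.02 to -0.10 in parental cells and turned RRM2B to -0.057 and CCNG1 to -0.064. In the difference between genotypes it turned FAS to -0.041 and ZMAT3 to -0.0032 and left 1 gene at an unadjusted p under 0.05, DDB2. With it the parental median of the p53 targets was -0.061, and the parental time median was 0.033 with 14 genes above 0, while 4 genes had an unadjusted p under 0.05 for time in null cells, against 2 under quantile normalization and 2 with no filter. With no filter the parental median was 0.09. With the filter at the percentile 60, which keeps 19 of the p53 targets, it was -0.053, with 9 above 0 and 1 at an unadjusted p under 0.05, and the median was -0.30 in null cells and 0.43 for the difference. On parental arrays alone 6 of the p53 targets had an unadjusted p under 0.05 and 4 genes of the whole table passed the adjusted threshold, and on null arrays alone 14 genes did.

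Each pair of arrays was also left out, where a lone pair is assumed to vary like the pairs of the other genotype. The parental median then ran from 0.056 to 0.093, its count at an unadjusted p under 0.05 from 0 to 6 and the adjusted calls over all genes from 0 to 4. In null cells 12 to 19 of the p53 targets were above 0, 1 to 17 had an unadjusted p under 0.05 and 0 to 5137 genes passed the adjusted threshold. The count of 19 is that of the 24 h pair alone, and the counts of 17 and 5137 are those of the 48 h pair alone. For the difference the median ran from -0.048 to 0.36, the unadjusted count from 0 to 15 and the adjusted calls from 0 to 3477. Signs turned for single genes as well, and the cause was not tested beyond the fewer arrays. Parental values ran from -0.29 to 0.15 for MDM2, -0.052 to 0.16 for CCNG1, -0.14 to 0.031 for TRIAP1, -0.34 to 0.19 for PMAIP1 and -0.12 to 0.10 for CYFIP2. Null values ran from -0.24 to 0.71 for BBC3, -0.079 to 1.01 for BAX, -0.83 to 0.20 for FAS, -0.40 to 0.28 for TP53INP1, -1.04 to 0.29 for GADD45A, -1.58 to 0.11 for RRM2B, -1.10 to 0.11 for TP53I3 and -0.15 to 0.0175 for XPC. They ran from -0.82 to 0.17 for PLK2, -0.14 to 0.057 for AEN, -0.17 to 0.70 for PERP, -1.69 to 0.16 for PMAIP1, -0.25 to 0.32 for POLH, -1.64 to 0.58 for EDA2R and -1.13 to 0.014 for PPM1D. Differences between genotypes ran from -0.049 to 1.06 for MDM2, -0.24 to 0.71 for BBC3, -0.79 to 0.29 for BAX, -0.47 to 0.56 for FAS, -0.15 to 1.18 for GADD45A, -0.048 to 1.64 for RRM2B and -0.088 to 0.078 for XPC. They ran from -0.037 to 0.21 for ZMAT3, -0.12 to 0.44 for PHLDA3, -0.46 to 0.10 for PLK3, -0.15 to 0.043 for AEN, -0.24 to 1.62 for PMAIP1, -0.46 to 1.76 for EDA2R and -0.14 to 1.004 for PPM1D. GDF15, CDKN1A, DDB2 and TNFRSF10B kept their direction in all 3 comparisons whichever pair was left out, and TP53INP1 did so in parental cells and in the difference.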
